A study of Mus musculus with 4 samples.

Results

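The interferon response genes examined here are 41 of the 32285 features counted in each of 4 single-cell libraries of mouse liver leukocytes. They were taken by symbol, and all 41 had at least 1 unique molecular identifier (UMI, one captured RNA molecule) in each library. By role they comprise the IFIT proteins, Isg15 with its conjugation enzymes, the OAS family, the transcription factors Stat2, Irf9 and Irf7, sensors of viral nucleic acid, antiviral effectors, the Parp9, Parp14 and Dtx3l group, Schlafen genes, Phf11 genes and 6 other interferon-induced genes. Type I interferons bind a receptor on nearly every cell, and the signal activates transcription factors that bind a short promoter motif, the interferon-stimulated response element. The genes switched on encode proteins that block viral translation, degrade RNA, tag proteins with ISG15 or sense foreign nucleic acid. Plasmacytoid dendritic cells are known as strong producers of type I interferon and keep a high resting level of Irf7.

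The mice carried an IL-22sgBFP allele, which reports transcription of the cytokine gene Il22 by a blue fluorescent protein. CD45+ leukocytes were isolated from liver with collagenase, DNase and Percoll and sorted into IL-22-negative and IL-22-positive cells, either before (0 h) or 12 h after an intrasplenic injection of MC38, a mouse colon carcinoma line whose cells travel from the spleen to the liver. Each of the 4 groups (IL-22-negative 0 h, IL-22-negative 12 h, IL-22-positive 0 h and IL-22-positive 12 h) is 1 library made with 10x Single Cell 3′ v2 chemistry. The number, age and sex of the mice behind each library are not given in the sources used here. No library followed an injection without cancer cells, so the cancer cells, the procedure and the lapse of time cannot be told apart.

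The libraries held 8555, 10231, 300 and 1378 barcodes in that order, of which 19273 of 20464 were kept as cells, with a median of 1797.5 to 3715.5 UMIs per cell. Pairs of libraries shared between 0 and 116 barcodes. Cells were clustered without the interferon genes and named from marker genes: T-like, NK- or ILC1-like, B-like, plasma-like, conventional dendritic (cDC-like), plasmacytoid dendritic (pDC-like) and monocyte-like. Clusters nearest basophil or mast cell, neutrophil and macrophage or Kupffer markers had 39, 10 and 5 IL-22-negative cells at 0 h. They are not among these classes. Of the IL-22-negative cells, 1802 at 0 h and 528 at 12 h lay in clusters of low UMI count that were left unnamed. Of the IL-22-positive cells, 141 at 0 h and 1041 at 12 h were monocyte-like, while only 36 and 35 were T-like, so the IL-22-positive libraries are described through their monocyte-like cells. Il22 is known as a cytokine of lymphocytes, whereas the largest class in both libraries labelled IL-22-positive was monocyte-like.

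Levels are given in CPM, the UMIs of a gene per 1000000 UMIs, after summing over the cells of one class in one library. A ratio is the CPM at 12 h over that at 0 h with an exact 95% interval. A gene is called higher or lower in what follows when the ratio passes 1.5-fold in either direction with at least 20 UMIs in both sums together. A sum of 0 is set to 3 UMIs, which makes the ratio a lower bound where the 0 h sum is 0 and an upper bound where the 12 h sum is 0. With 1 library per group there is no test of a condition: every ratio compares 2 libraries, and every interval covers counting error only.

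The promoters are shown because the members did not move as one group. The members are listed as interferon response genes, so their share with the response element is not independent of that choice. In the 250 bases before the start of transcription, the letters GAAANNGAAA, or TTTCNNTTTC on the other strand, occurred in 14 of the 34 members found in the RefSeq promoter table (build GRCm38.p6), or 41.2%, against 936 of 27025 genes (3.46%). Stretches around the matches are printed 5′ to 3′ along the gene, with the matching bases in capitals, overlapping matches run together.
Isg15: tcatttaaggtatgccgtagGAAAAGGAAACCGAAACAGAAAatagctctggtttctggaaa
Ifit1: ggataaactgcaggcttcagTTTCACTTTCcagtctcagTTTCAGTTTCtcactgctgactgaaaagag
Ifit3: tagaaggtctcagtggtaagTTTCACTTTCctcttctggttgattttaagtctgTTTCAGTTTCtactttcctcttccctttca
Rsad2: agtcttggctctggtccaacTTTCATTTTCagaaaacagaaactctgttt
Bst2: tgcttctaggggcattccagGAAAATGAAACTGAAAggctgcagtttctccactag
Stat2: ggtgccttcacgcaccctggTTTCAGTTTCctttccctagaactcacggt
Oas1a: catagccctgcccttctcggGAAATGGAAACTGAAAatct
These lie at chr4:156200855-156200916 (minus strand), chr19:34640765-34640833 (plus), chr19:34583353-34583436 (plus), chr12:26456543-26456592 (minus), chr8:71537567-71537622 (minus), chr10:128270256-128270305 (plus) and chr5:120907526-120907565 (minus), in the order printed. The stretch shown for Ifit3 recurs base for base before Ifit3b, at chr19:34607749-34607832, and the 2 upstream windows share 188 of 218 aligned bases (86.2%). The match nearest the start began 66 bases before it in Isg15, 85 in Ifit1, 122 in Ifit3, 120 in Rsad2, 124 in Bst2, 222 in Stat2 and 14 in Oas1a. The other members with a match were Ifit3b, Oas3, Ddx60, Trim30a, Slfn5, Slfn8 and Phf11b. Usp18, Oas2, Zbp1, Parp9, Parp14, Ifi27l2a and Rtp4 were not in the table. A match is a string of letters and not a measured binding site.

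Several members are neighbours in the genome: Ifit2, Ifit3, Ifit3b and Ifit1 on chromosome 19, Oas1a, Oas2 and Oas3 on chromosome 5 and, apart from them on that chromosome, Oasl1 and Oasl2, the Schlafen genes on chromosome 11, and Rsad2 beside Cmpk2 on chromosome 12, whose starts lie 12752 bases apart on opposite strands. Some share sequence with a close copy, so that their UMIs could be split or lost: 52.9% of the 98-base words of Oas1a transcripts also occur in another gene, against 15.3% in Phf11b and 3.78% in Ifit3. Dtx3l and Parp9 lie on opposite strands and overlap by 682 bases at their starts, away from the 3′ ends. Whether strand was used in counting is not stated. Values for these genes are uncertain to that extent.

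In T-like cells, 23 of 40 tested members were higher at 12 h and none was lower, beside 3.92% of all tested genes called higher and 7.23% called lower. The median log2 ratio was 0.67 over the members and −0.05 over all genes. The sums cover 2412 cells at 0 h and 3612 at 12 h, with median depths of 2441 and 2314.5 UMIs. All 4 IFIT genes, all 3 of the ISG15 group and all 5 OAS genes were higher, whereas the transcription factors (1 of 3) and Schlafen genes (1 of 4) mostly were not. When the interferon genes were kept in the clustering, only 46 of the 204 responding T-like cells described further on stayed in the class, and 8 members were then higher.

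Isg15, the ubiquitin-like modifier, went from 178 CPM to 500 CPM in T-like cells, a ratio of 2.81 (2.63 to 3.00). Ifit3, of the IFIT family, went from 10.3 to 37.9 CPM, a ratio of 3.67 (2.82 to 4.85). Rsad2 (viperin), an enzyme that makes a chain-terminating nucleotide, had the highest ratio among members with 50 or more UMIs, 7.79 (4.81 to 13.4), from 2.82 to 21.9 CPM. All 3 genes carry the printed motif and were higher at 12 h, but so were Ifit2, Oasl1, Oasl2 and Cmpk2, which had no match. Whether the motif went with the ratios was not tested. Ifit3b had a ratio of 5.82 (3.84 to 9.20), Cmpk2, the mitochondrial nucleotide kinase beside Rsad2, 3.62 (2.41 to 5.63), and Ifit1 3.06 (2.41 to 3.91). Ifi44 also reached 3.67.

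The deubiquitinase-like Usp18, which removes ISG15 and damps the receptor, had a ratio of 2.67 in T-like cells, and the exonuclease Isg20 one of 2.78 (2.43 to 3.18). Bst2 (tetherin), which holds budding virions at the membrane, went from 166 to 334 CPM, a ratio of 2.01 (1.87 to 2.16). Irf7, which amplifies interferon transcription, went from 43.8 to 69.5 CPM, a ratio of 1.59 (1.38 to 1.83). All 4 of these genes passed the call at smaller ratios than Rsad2. Ifi27l2a, the gene of a mitochondrial protein, stood at 888 and 1138 CPM, a ratio of 1.28 that did not pass.

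The lowest ratios in T-like cells were 0.955 for the RNA-dependent kinase Eif2ak2 (PKR), 0.964 for Slfn2, 1.06 for the dNTP hydrolase Samhd1, 1.06 for the GTPase Ifi47 and 1.1 for Slfn1. Slfn2, needed for T cell quiescence, stood at 378 and 364 CPM. The transcription factor genes Stat2 and Irf9 had ratios of 1.16 and 1.14. The strong and the flat members thus lay within the same list, and Stat2 carries the motif as Isg15 does.

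**Figure D1:**
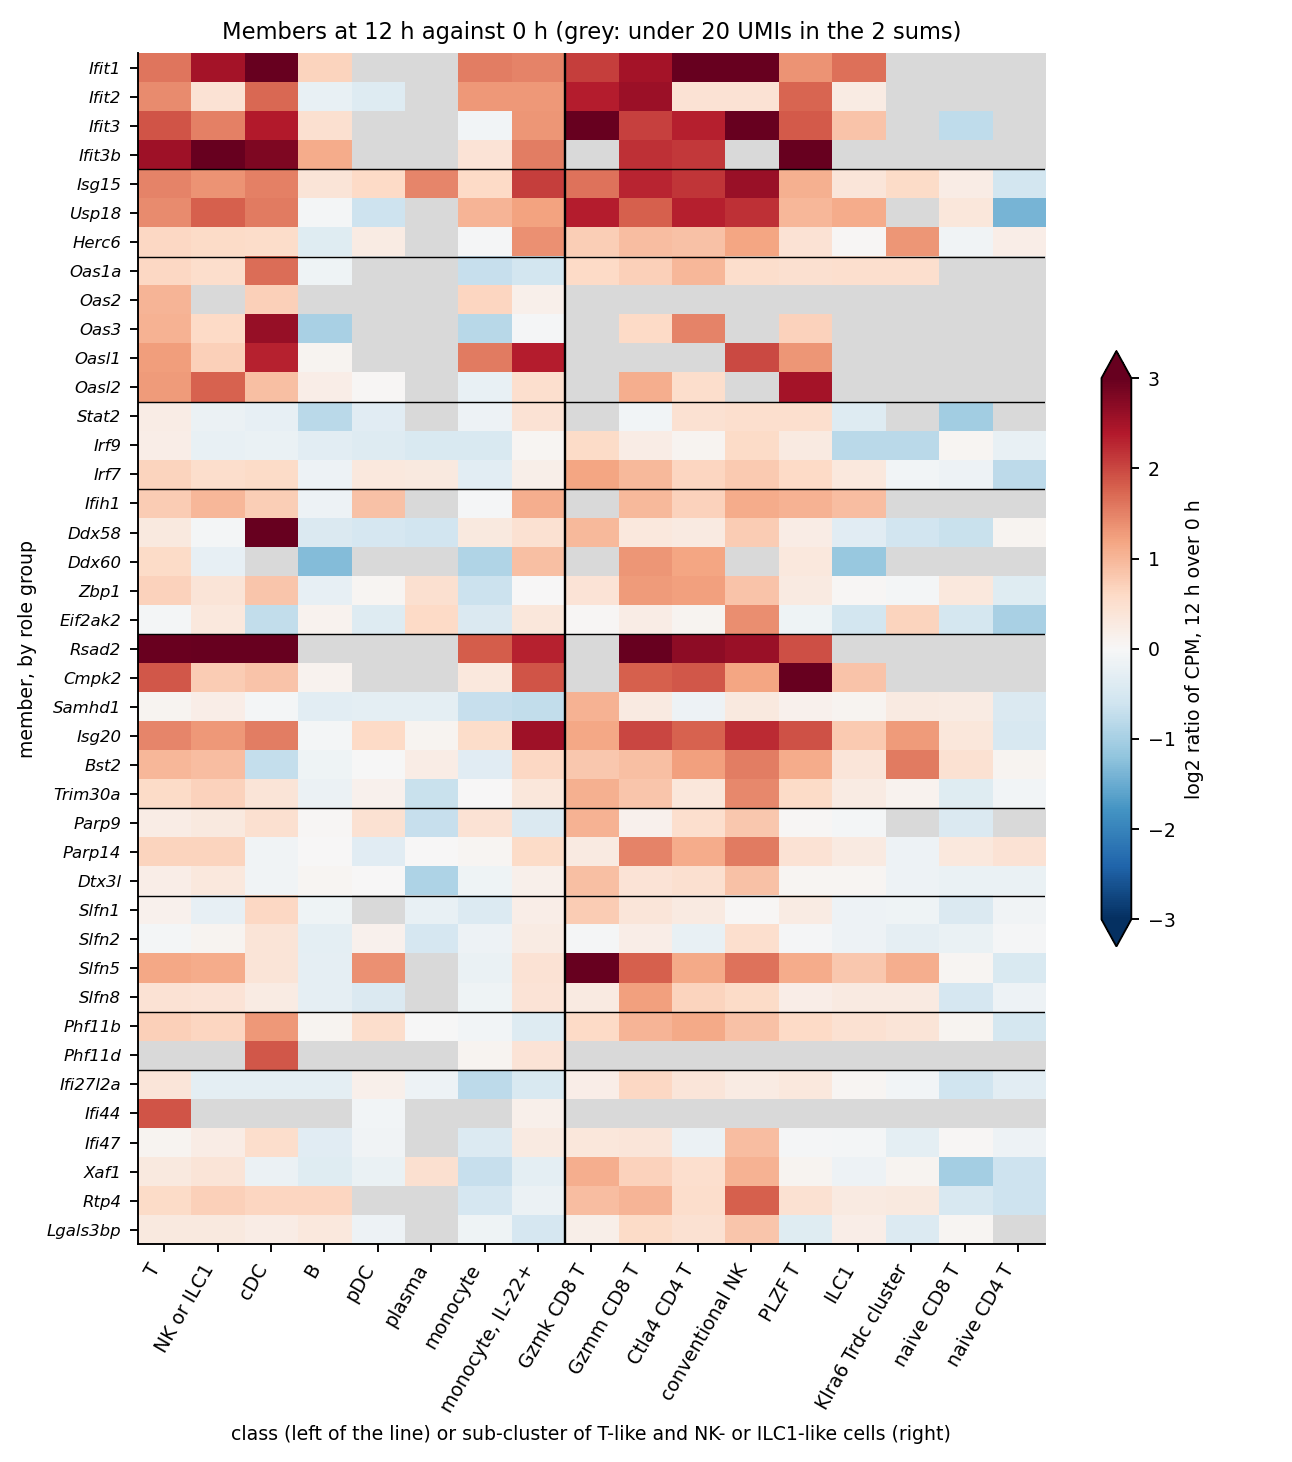
Heat map of the log2 ratio of CPM at 12 h over 0 h for the 41 members (vertical axis, by role) in each cell class (left of the line) and each T-, NK- or ILC1-like sub-cluster (right of it). Grey marks fewer than 20 UMIs in both sums, and sums of 0 were set to 3 UMIs. All 4 IFIT, 3 ISG15-group and 5 OAS genes are red in T-like cells (23 of 40 members called higher), whereas 3 of 37 members were called higher in B-like cells.

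NK- or ILC1-like cells had 18 of 38 tested members higher and none lower, beside 3.91% and 9.94% of all genes, with 809 and 1689 cells. Rsad2 was counted once at 0 h and 58 times at 12 h, a ratio of 28.2 whose interval runs from 4.87 to 1134. Ifit1 went from 4.48 to 25.1 CPM, a ratio of 5.60 (2.73 to 13.4), and Usp18 had a ratio of 3.44. Isg15 went from 141 to 358 CPM, a ratio of 2.54 (2.22 to 2.92), and Ifit3 from 6.72 to 19.1 CPM, a ratio of 2.84 (1.53 to 5.76). Bst2 went from 116 to 220 CPM, a ratio of 1.90. Irf7 stood at 57.1 and 81.8 CPM, a ratio of 1.43, and Ifi27l2a at 162 and 133 CPM, a ratio of 0.819, neither of which passed. The other low ratios were 0.848 for Slfn1, 0.858 for Irf9, 0.893 for Stat2 and 0.961 for Ddx58 (RIG-I).

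Within the T-, NK- and ILC1-like cells the members did not move alike in every sub-cluster. The ratio of Isg15 was 6.06 (4.62 to 8.09) in the conventional NK-like cluster, where it went from 76.8 to 466 CPM, and 1.28 (1.05 to 1.58) in the ILC1-like cluster, where it stood at 184 and 236 CPM. The 2 intervals, which cover counting error only, do not overlap. The NK-like cluster had 25 of 34 tested members higher (background 7.40%) in 338 and 654 cells. The ILC1-like cluster had 7 of 33 higher and 2 lower (5.60% and 12.8%) in 330 and 754 cells.

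In the conventional NK-like cluster, Ifit1 was counted once at 0 h and 52 times at 12 h (ratio 26.8, 4.60 to 1080), and Rsad2 had 0 UMIs at 0 h and 35 at 12 h, at least 6.01-fold higher. Isg20, Usp18 and Rtp4 followed at 4.71, 4.58 and 3.49. The lowest there were Ifi27l2a at 1.20, Samhd1 at 1.22, Slfn2 at 1.43, Oas1a at 1.45 and Irf9 at 1.48. In the ILC1-like cluster the highest were Slfn5 at 1.75, Isg20 at 1.73, Oas1a at 1.42, Phf11b at 1.38 and Bst2 at 1.29. Its lowest were Irf9 at 0.574, Eif2ak2 at 0.687, Ddx58 at 0.786, Xaf1 at 0.894 and Slfn2 at 0.896. Both clusters carried all 7 markers of their own list in at least 10% of cells.

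Among T-like sub-clusters, the one led by Gzmm with CD8 markers (388 and 607 cells) had 26 of 37 members higher (background 8.70%). Rsad2 was counted once and 59 times there (ratio 39.6, 6.83 to 1590), and Isg15 went from 127 to 622 CPM (4.88, 4.18 to 5.73). Ifit2, Ifit1 and Ifit3b had ratios of 5.94, 5.65 and 4.60, and the lowest were Parp9 at 1.10, Slfn2 at 1.15, Eif2ak2 at 1.16, Irf9 at 1.17 and Samhd1 at 1.21. No member was called lower in this cluster.

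The CD4 cluster with Ctla4 and Tnfrsf4 (295 and 592 cells) had 20 of 37 members higher (7.14%). Isg15 went from 166 to 728 CPM, a ratio of 4.40, and Ifit1, Rsad2, Ifit3 and Usp18 had ratios of 13, 6.43, 5.03 and 5.01. Its lowest were Slfn2 at 0.863, Ifi47 at 0.883, Samhd1 at 0.896, Eif2ak2 at 1.06 and Irf9 at 1.06. The cluster with Gzmk and CD8 markers (177 and 232 cells) had 20 of 29 higher (8.73%). There Isg15 went from 186 to 578 CPM (3.12), followed by Irf7 at 2.28, Isg20 at 2.23, Xaf1 at 2.12 and Trim30a at 2.10. Its lowest were Slfn2 at 0.981, Ifi27l2a at 1.15, Slfn8 at 1.20, Parp14 at 1.22 and Ifi47 at 1.26.

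The largest T-like sub-cluster, led by Cd40lg and Zbtb16 (the gene of PLZF, the factor of innate-like T cells), had 701 and 1415 cells and 17 of 38 members higher (4.20%). Isg15 went from 275 to 578 CPM, a ratio of 2.10. Ifit3b, Cmpk2, Oasl2, Rsad2 and Isg20 had the highest ratios, 13.3, 10.4, 5.60, 3.82 and 3.74. Lgals3bp, Eif2ak2, Slfn2, Ifi47 and Parp9 had the lowest, 0.776, 0.918, 0.977, 0.980 and 1.02.

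Neither naive T-like cluster had a member called higher. In naive CD4 cells (299 and 321), 5 of 23 members were lower (background 7.74% higher, 11.3% lower): Usp18, Irf7, Eif2ak2, Xaf1 and Rtp4. Isg15 stood at 78.9 and 54.3 CPM, a ratio of 0.688 (0.446 to 1.05). In naive CD8 cells (299 and 307), 5 of 27 were lower (7.59% and 8.97%): Ifit3, Stat2, Ddx58, Ifi27l2a and Xaf1. There Isg15 stood at 57.7 and 67.6 CPM, a ratio of 1.17. The intervals of Isg15 in these 2 clusters lie below those of the NK-like and Gzmm clusters.

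In naive CD4 cells the ratios ran from 0.580 for Irf7, 0.650 for Xaf1 and 0.650 for Rtp4, 0.688 for Isg15 and 0.693 for Phf11b to 0.973 for Slfn2, 1.06 for Bst2, 1.06 for Ddx58, 1.15 for Herc6 and 1.35 for Parp14. In naive CD8 cells they ran from 0.492 for Xaf1, 0.660 for Ifi27l2a, 0.702 for Slfn8, 0.715 for Rtp4 and 0.743 for Slfn1 to 1.19 for Samhd1, 1.25 for Parp14, 1.25 for Zbp1, 1.26 for Isg20 and 1.37 for Bst2. An unnamed cluster led by Klra6 and Trdc (122 and 240 cells) had 5 of 24 higher and 1 lower (9.16% and 12.9%). Bst2 had a ratio of 2.95 there, Isg15 1.49, Phf11b 1.30, Rtp4 1.23 and Slfn8 1.21, and the lowest were Ddx58 at 0.674, Ifi47 at 0.815, Slfn2 at 0.824, Irf7 at 0.948 and Ifi27l2a at 0.950.

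A pair of smaller sub-clusters held under 50 cells at one time. The one led by Penk and Tnfrsf4 (225 and 32 cells) had 2 of 24 members higher, Samhd1 and Slfn5, and 9 lower, beside 14.4% and 21.7% of all genes. Only 7 of its members had 50 UMIs or more: Samhd1 at 1.77, Bst2 at 1.18, Ifi27l2a at 1.17, Isg15 at 0.698 (0.426 to 1.09), Parp14 at 0.675, Slfn2 at 0.580 and Isg20 at 0.289. The one led by Cxcl2 and Cd163l1 (41 and 118 cells) had 2 of 11 higher, Isg20 and Ifi27l2a, and Slfn1 lower, beside 13.8% and 12.5%. At 50 UMIs or more it had Ifi27l2a at 1.71, Bst2 at 1.45 and Slfn2 at 0.718. The Penk cluster thus had more members lower than higher, as did both naive T-like clusters, unlike the Gzmm, Ctla4, Gzmk and PLZF clusters.

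To separate how many cells responded from how strongly, each cell was thinned to 1000 UMIs and called responding when at least 3 of 12 core genes had a UMI: Ifit1, Ifit2, Ifit3, Ifit3b, Isg15, Rsad2, Usp18, Oasl1, Cmpk2, Irf7, Ifi44 and Rtp4. The 58 and 71 T-like cells under 1000 UMIs were left out. The share of responding T-like cells was 1.32% at 0 h (31 of 2354, exact 95% interval 0.896 to 1.86) and 5.76% at 12 h (204 of 3541, 5.02 to 6.58), and 3.61% and 11.1% without thinning. With interferon genes kept in the clustering, which moved most responders out of the class, the 12 h share was 1.40%. In NK- or ILC1-like cells it was 0.255% (2 of 785) and 3.46% (56 of 1617, 2.63 to 4.47), and 2.22% and 7.76% unthinned. Both shares were higher at 12 h with intervals that do not overlap, yet most T-like cells were not responding by this rule at either time. These intervals count the cells of 1 library per time and do not cover differences between mice or libraries.

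By sub-cluster, the share went from 1.14% to 9.50% in the Gzmk CD8 cluster, from 1.81% to 8.98% in the Ctla4 CD4 cluster and from 1.03% to 8.76% in the Gzmm CD8 cluster. In the conventional NK-like cluster it went from 0 of 327 cells, which allows a share of up to 0.917%, to 5.56%. In the PLZF cluster it was 1.75% and 5.63%, and in the ILC1-like cluster 0.623% and 1.79%. In naive CD4 cells it was 1.02% and 0.315%, and in naive CD8 cells 0 of 299, which by the same limit allows up to 1.00%, and 0.326%. Of the 260 responding T-, NK- and ILC1-like cells at 12 h, 78 were in the PLZF cluster, 53 in the Gzmm cluster, 51 in the Ctla4 cluster and 1 in each naive cluster.

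**Figure D2:**
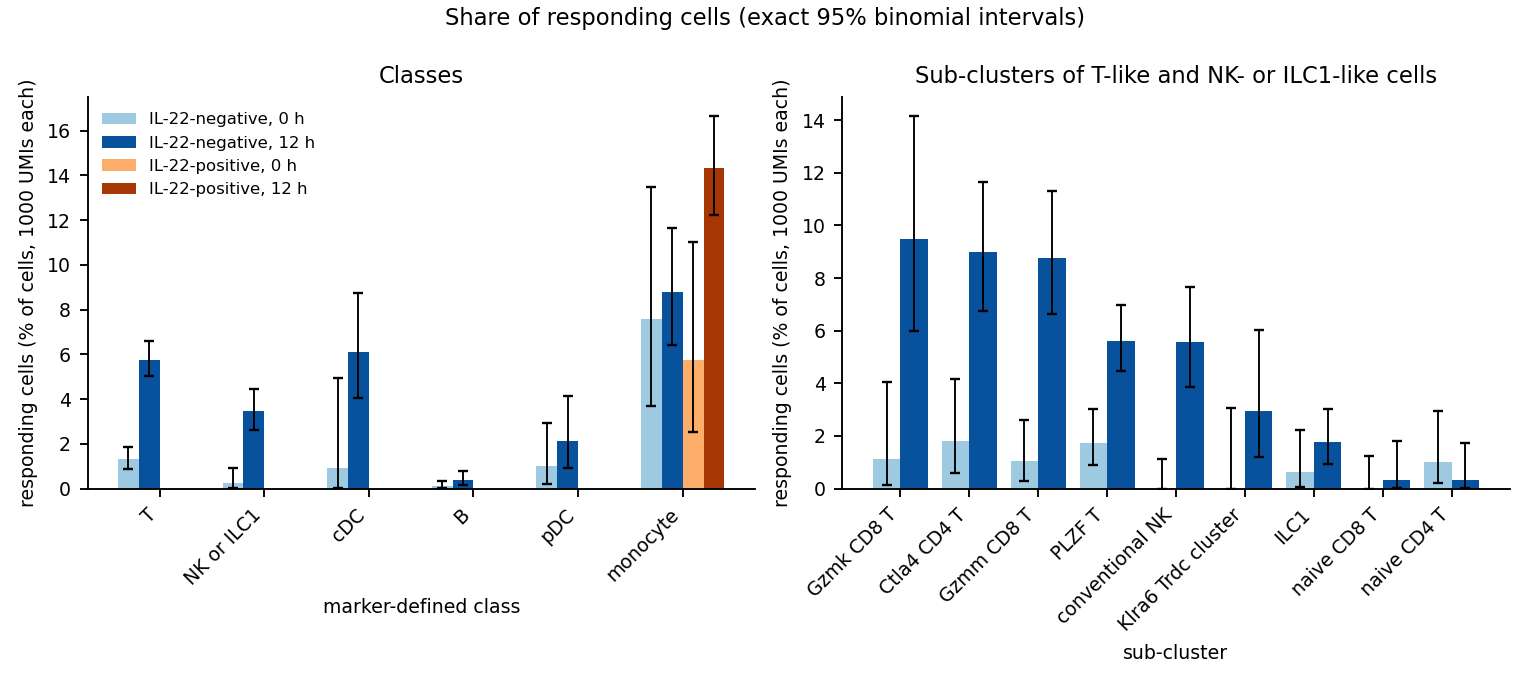
Percentage of cells with at least 3 of 12 core genes after thinning to 1000 UMIs, by class and library (left) and by T-, NK- and ILC1-like sub-cluster at 0 h and 12 h (right), with exact 95% intervals. T-like cells stand at 1.32% and 5.76%, IL-22-positive monocyte-like cells at 5.76% and 14.3%.

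Core UMIs were concentrated in the responding cells. In T-like cells at 12 h the responding 5.76% held 56.4% of the core UMIs, against 20.2% held by responders at 0 h. A responding T-like cell had 5.68 core UMIs of its 1000 at 0 h and 8.69 at 12 h, while the other cells had 0.299 and 0.411. Since responding cells were chosen by these UMIs, their level is a description of the spread between cells.

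Over the core genes together, the share of thinned T-like cells with any core UMI went from 22.0% to 29.1%, 1.33 times, and the UMIs per such cell from 1.68 to 3.05, 1.81 times. With interferon genes kept in the clustering these factors were 1.13 and 1.08. In NK- or ILC1-like cells these factors were 1.17 and 1.73, and in cDC-like cells 1.57 and 1.85. For single genes in T-like cells the balance differed. Isg15 was detected in 11.0% and 18.5% of cells (1.68 times) with 1.68 and 2.71 UMIs per positive cell (1.61 times). Rsad2 was detected in 0.340% and 1.58% (4.65 times) with 1.12 and 1.41 UMIs (1.25 times). Ifit3 and Cmpk2 had share factors of 2.87 and 3.72 with level factors of 1.13 and 1.11. For these low genes a positive cell usually had 1 UMI, near the limit of detection, so no change of level can be read from them. Ifi27l2a was detected in 42.6% and 41.5% of T-like cells with 2.10 and 2.80 UMIs, a level factor of 1.33.

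**Figure D3:**
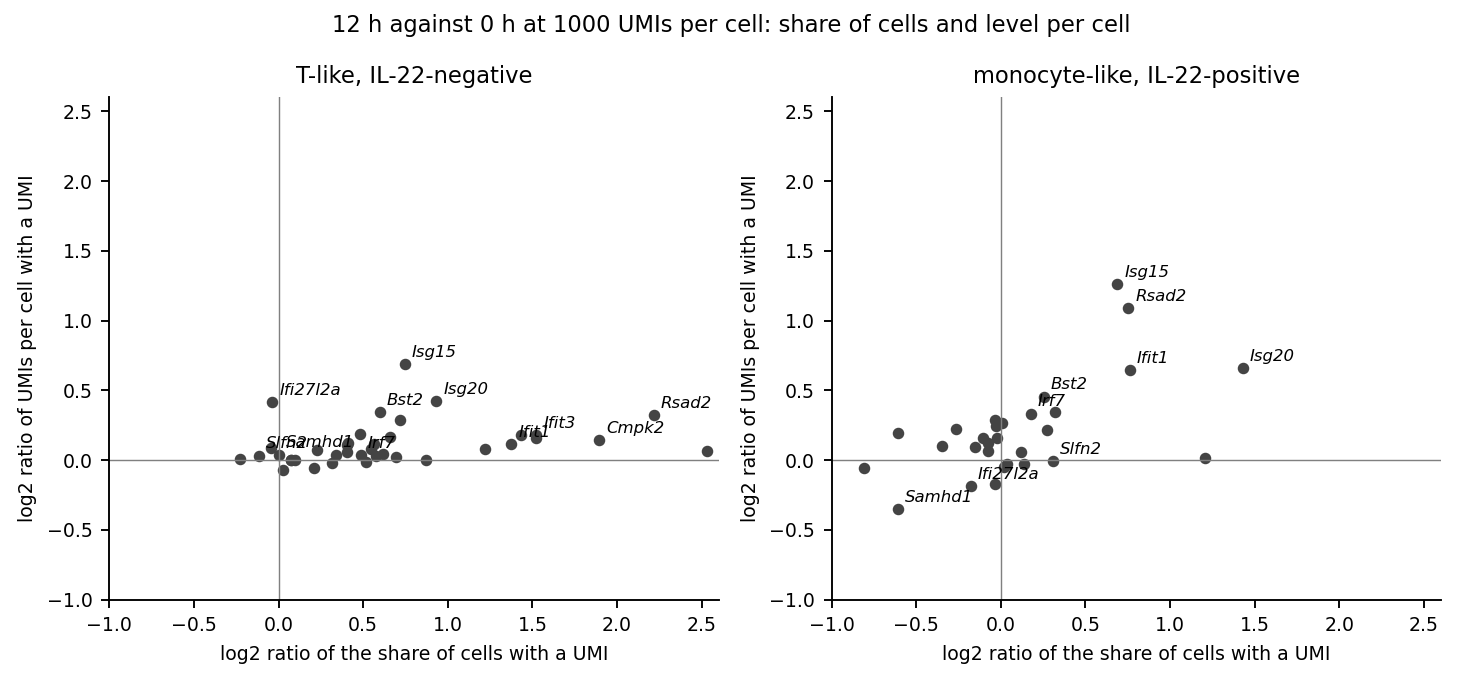
For each member with a UMI in at least 10 cells at 12 h and 5 at 0 h, the log2 ratio (12 h over 0 h) of the share of thinned cells with a UMI (horizontal axis) against that of the UMIs per positive cell (vertical axis), in IL-22-negative T-like and IL-22-positive monocyte-like cells. In T-like cells Rsad2 lies far right (share 4.65 times) and little above 0, while in monocyte-like cells Isg15 lies high (level 2.40 times).

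Detection of one member went with detection of others in the same cells. Of the 121 T-like cells with an Ifit1 UMI at 12 h, 73.6% also had Isg15, 24.0% Ifit3 and 14% Rsad2, against 16.6%, 2.31% and 1.14% of the 3420 cells without Ifit1. Slfn2, whose class ratio was flat, was detected in 45.5% and 29.1%, and Samhd1 in 28.9% and 12.5%. These percentages are over cells of 1 library at equal depth and describe that library only.

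In cDC-like cells (111 and 445), 21 of 39 members were higher and 2 lower, beside 11.9% and 14.5% of all genes. All 4 IFIT and all 5 OAS genes were higher. Isg15 went from 200 to 569 CPM, a ratio of 2.85 (2.36 to 3.46), and Rsad2 from 3.36 to 38.5 CPM, a ratio of 11.5 (3.09 to 96.0). Ifit3 had no UMI at 0 h and 67 at 12 h, at least 5.23-fold higher. Ddx58, the RNA sensor RIG-I, was counted once and 63 times (14.7, 2.55 to 591), Ifit1 had a ratio of 9.48 (2.54 to 79.6) and Ifit3b one of 7.02 (1.86 to 59.3). Irf7 stood at 116 and 171 CPM, a ratio of 1.48 that did not pass.

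The members that were lower in cDC-like cells were Bst2, from 1804 to 1100 CPM, a ratio of 0.610 (0.568 to 0.655), and Eif2ak2, a ratio of 0.603 (0.399 to 0.931). The summed pDC markers in this class also went from 885 to 531 CPM, with 8 and then 6 of 10 markers in at least 10% of cells. Their part in the ratio of Bst2 was not tested. Ifi27l2a stood at 1104 and 897 CPM (0.812), Stat2 had a ratio of 0.842 and Irf9 one of 0.873. The share of responding cDC-like cells was 0.909% (1 of 110, 0.0230 to 4.96) and 6.09% (27 of 443, 4.05 to 8.74), with 13.5% and 19.1% unthinned, and the thinned intervals overlap. The member sum was 4835 and 5118 CPM with Bst2 and Ifi27l2a and 1927 and 3121 CPM without them.

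B-like cells (2041 and 1874) had 3 of 37 members higher, Ifit1, Ifit3b and Rtp4, and 3 lower, Oas3, Stat2 and Ddx60, beside 3.49% and 10.1% of all genes. The highest ratios at 50 UMIs or more were Rtp4 at 1.57 (1.09 to 2.26), Isg15 at 1.31 (1.04 to 1.66, from 35.2 to 46.0 CPM), Eif2ak2 and Cmpk2 at 1.08 and Phf11b at 1.06. The lowest were Stat2 at 0.572 (0.393 to 0.824), Ddx58 at 0.742, Xaf1 at 0.779, Herc6 at 0.783 and Ifi47 at 0.787. Ifit3 stood at 4.69 and 6.49 CPM, Bst2 at 113 and 104 CPM and Ifi27l2a at 787 and 643 CPM, Irf7 had a ratio of 0.893, and Rsad2 was counted 2 and 15 times, too few for a call. The share of responding B-like cells was 0.0997% (2 of 2006) and 0.392% (7 of 1787), among the lowest of all classes.

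Plasma-like cells (98 and 142) had 2 of 18 members higher and 3 lower, beside 12.5% and 14.6% of all genes. Isg15 went from 66.6 to 184 CPM, a ratio of 2.76 (2.10 to 3.66), followed by Zbp1 at 1.39, Bst2 at 1.18 (349 and 410 CPM), Isg20 at 1.06 and Parp14 at 1.01. The lowest were Trim30a at 0.628, Ddx58 at 0.670, Slfn2 at 0.708, Samhd1 at 0.817 and Ifi27l2a at 0.900 (978 and 880 CPM). Ifit3 and Rsad2 each had 0 UMIs at 0 h and 1 at 12 h in this class, whose cells had a median of 11229.5 and 12069 UMIs. None of 94 and none of 141 thinned cells responded, which allows shares of up to 3.19% and 2.13%. No class is known to lack these genes, so no class gives a level of free RNA for all of them.

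The pDC-like cells (312 and 385) combined a high resting level of some members with few differences between the times. Of 28 members, 4 were higher, Isg15, Ifih1, Isg20 and Slfn5, and Usp18 was lower, beside 4.93% and 12.2% of all genes. The median log2 ratio was −0.00 over the members and −0.09 over all genes. Slfn5 went from 29.3 to 75.5 CPM (2.58, 1.72 to 3.95) and Isg15 from 148 to 224 CPM (1.51, 1.25 to 1.84). Isg20 had a ratio of 1.5, Phf11b 1.44 and Parp9 1.37. Usp18 went from 53.1 to 34.6 CPM (0.651, 0.436 to 0.969), followed by Slfn8 at 0.742, Irf9 at 0.760, Eif2ak2 at 0.770 and Stat2 at 0.784.

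Bst2, a surface marker of these cells, stood at 6286 and 6200 CPM in pDC-like cells, a ratio of 0.986 (0.956 to 1.02). Irf7 stood at 185 and 229 CPM (1.24, 1.04 to 1.48) and Ifi27l2a at 1082 and 1209 CPM (1.12). Ifit3 was counted 4 times at each time and Rsad2 3 and 15 times, a ratio of 3.85 (1.09 to 20.8) on too few UMIs for a call. The share of responding cells was 1.01% (3 of 297, 0.209 to 2.92) and 2.13% (8 of 376, 0.923 to 4.15), with 5.13% and 7.53% unthinned. The thinned intervals overlap.

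**Figure D4:**
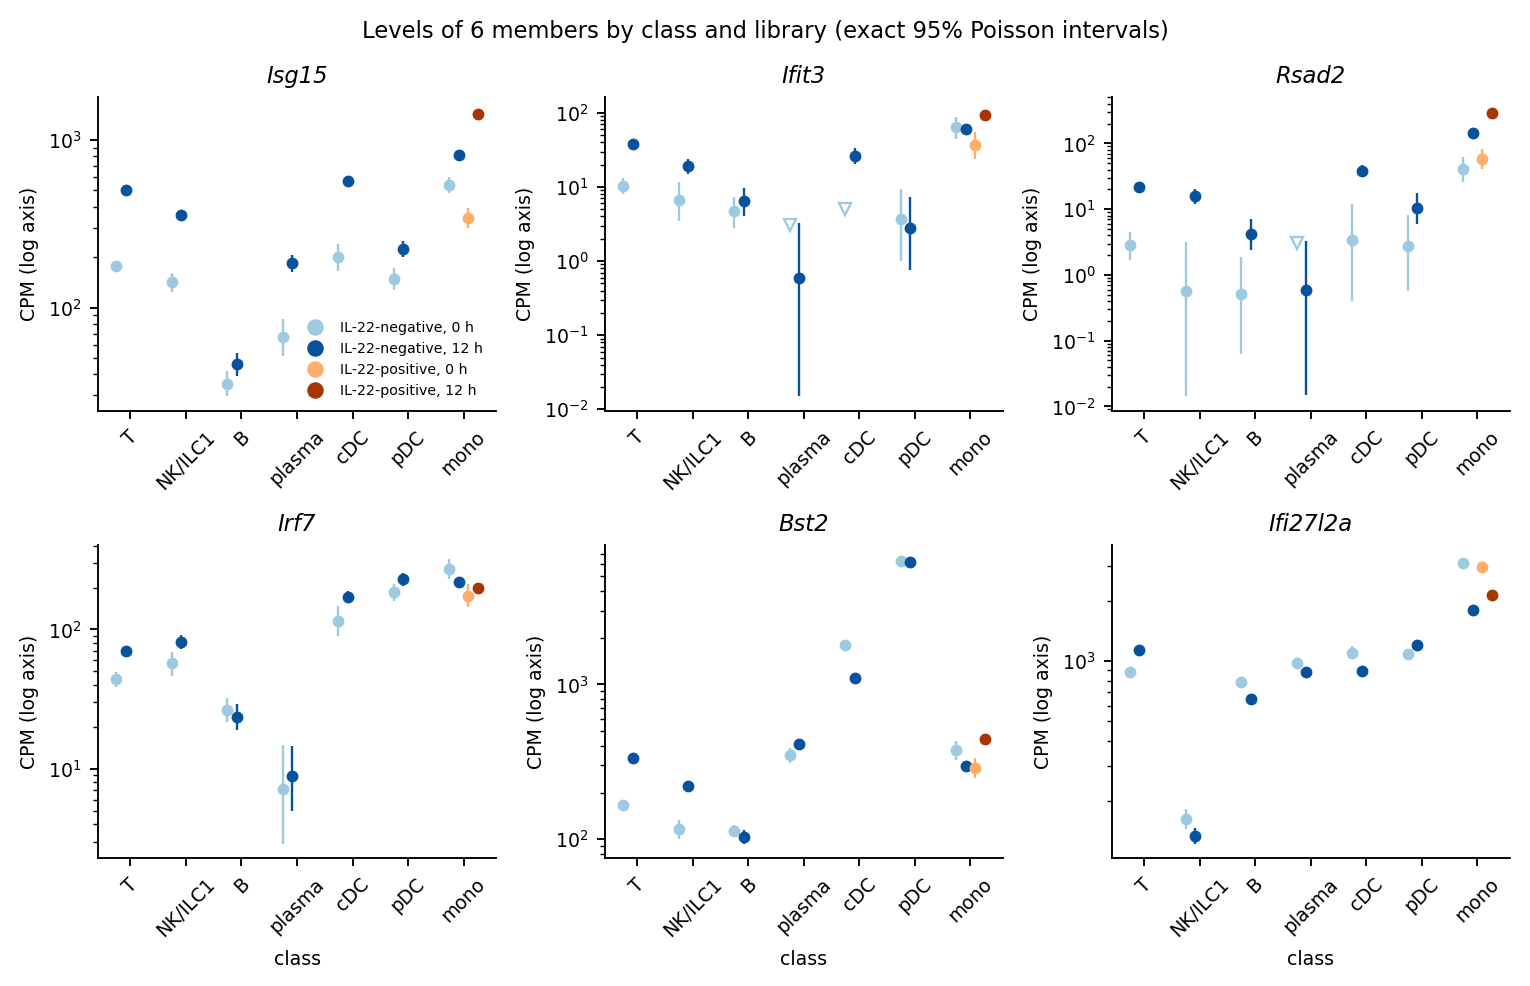
Level (CPM, log axis) of Isg15, Ifit3, Rsad2, Irf7, Bst2 and Ifi27l2a in each class and library, with exact Poisson 95% intervals; open triangles mark the floor of 3 UMIs where none was counted. Bst2 stands at 6286 and 6200 CPM in pDC-like cells, far above the other classes, while Isg15 is highest in monocyte-like cells.

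At 0 h among the IL-22-negative cells of the named classes, monocyte-like cells had the highest level of 33 of the 41 members. The interval stood clear of the next class for 20 of them. These monocyte-like cells included 4 of a sub-cluster led by Rsad2 and Ifit1, described further on, with 3 of the 10 responding cells. The intervals cover counting error and not the weight of such single cells in the sums. Isg15 was at 539 CPM there, next to 200 CPM in cDC-like, 178 in T-like and 148 in pDC-like cells and down to 35.2 CPM in B-like cells. Rsad2 was at 40.8 CPM against 3.36 in cDC-like cells, Samhd1 at 902 against 235, Ifi27l2a at 3100 against 1104, and Ifit3 at 63.8 against 10.3 in T-like cells. The 39 basophil- or mast-like cells, outside these classes, had Isg15 at 293 CPM (192 to 430), Samhd1 at 395 CPM and Ifi27l2a at 67.7 CPM. Irf7 was at 273 CPM (232 to 320) in monocyte-like and 185 CPM (up to 212) in pDC-like cells.

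The pDC-like cells led for 5 members at 0 h: Bst2, Stat2 at 101 CPM, Trim30a at 154 CPM, Usp18 at 53.1 CPM and Ifi44 at 20.2 CPM. Only for Bst2, against 1804 CPM in cDC-like cells, and Stat2, against 44.3 CPM in monocyte-like cells, were the intervals apart. Plasma-like cells led for Isg20 at 279 CPM, ahead of 78.0 CPM in monocyte-like cells. NK- or ILC1-like cells led for Ddx58, at 63.3 CPM, and for Lgals3bp. The resting order thus differed by member.

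The monocyte-like classes differ in make-up between the libraries, which bears on each ratio that follows. Among IL-22-negative cells, 97 of 132 at 0 h but 27 of 497 at 12 h lay in one sub-cluster, and 226 of the 497 lay in another, led by S100a8, Lrg1 and Lcn2, that held 1 cell at 0 h. Among IL-22-positive cells, 72 of 141 at 0 h lay in a nonclassical-like sub-cluster, and 257, 220 and 180 of 1041 at 12 h in 3 others. The summed neutrophil markers went from 99.3 to 4500 CPM in IL-22-negative and from 115 to 3065 CPM in IL-22-positive monocyte-like cells, with 4 of 10 markers in at least 10% of cells at 12 h. The erythroid list went from 1.77 to 3844 CPM in the IL-22-negative cells, with 0 of 5 in at least 10% of cells. Their part in the results was not tested.

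In IL-22-negative monocyte-like cells, 7 of 40 members were higher and 7 lower, beside 15.4% and 14.5% of all genes, a count that sums unlike clusters described further on. Rsad2 went from 40.8 to 143 CPM (3.51, 2.30 to 5.61), Oasl1 from 17.7 to 52.4 CPM (2.96, 1.56 to 6.31) and Ifit1 from 26.6 to 77.1 CPM (2.90). Ifit2 had a ratio of 2.47, Usp18 2.02 and Isg15, at 539 and 809 CPM, 1.5 (1.33 to 1.70). Oas3 went from 49.6 to 28.0 CPM (0.565), Ifi27l2a from 3100 to 1799 CPM (0.580, 0.549 to 0.614), Samhd1 from 902 to 555 CPM (0.615, 0.555 to 0.682), Xaf1 had a ratio of 0.620, and Oas1a went from 154 to 96.1 CPM (0.623). Ifit3 stood at 63.8 and 60.2 CPM (0.944), Irf7 at 273 and 220 CPM (0.805) and Bst2 at 376 and 298 CPM (0.793).

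These ratios depended on a small sub-cluster led by Rsad2, Ifit1, Ifit2 and Cxcl10, which held 4 of the IL-22-negative monocyte-like cells at 0 h and 43 at 12 h. Its core genes summed to 12352 and 13274 CPM. Without it, a setting chosen after seeing the data, 1 member was higher and 20 were lower, Isg15 had a ratio of 0.681 and Rsad2 one of 0.543. The direction for both genes therefore rested on those cells, and it also turned under a stricter cell filter and when interferon genes were kept in the clustering.

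In IL-22-positive monocyte-like cells, 14 of 41 members were higher and 1 lower, beside 14.5% and 21.4% of all genes, again over both clusters, and the median log2 ratio was 0.40 against −0.09. Isg15 went from 343 to 1436 CPM (4.19, 3.65 to 4.83) and Rsad2 from 58.4 to 287 CPM (4.92, 3.53 to 7.05). Isg20 went from 24.4 to 143 CPM (5.86, 3.53 to 10.5), Oasl1 from 11.4 to 57.9 CPM (5.10, 2.44 to 12.8), Cmpk2 from 19.5 to 72.2 CPM (3.71, 2.09 to 7.25) and Ifit3 from 37.3 to 94.0 CPM (2.52). All 4 IFIT genes and all 3 of the ISG15 group were higher but only Oasl1 of the 5 OAS genes.

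Bst2 went from 291 to 446 CPM in these IL-22-positive cells, a ratio of 1.53, whereas Irf7 stood at 175 and 198 CPM (1.13) and Ifi27l2a at 2981 and 2161 CPM (0.725). Samhd1 went from 867 to 524 CPM, the lowest ratio at 0.604 (0.550 to 0.665), followed by Oas1a at 0.682, Lgals3bp at 0.702 and Parp9 at 0.739. Without the sub-cluster led by Rsad2 and Ifit1 (2 cells at 0 h, 89 at 12 h), 6 members were higher, and 25 were with no doublet removed. With interferon genes kept in the clustering 3 were higher, and Rsad2 turned to 0.429, Ifit3 to 0.236 and Bst2 to 0.998.

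The class joins a pair of clusters in which most members called had ratios in opposite directions. The cluster led by Chil3, Hp and F13a1, genes of classical monocytes, had 2 of 39 members higher and 20 lower among IL-22-negative cells (94 and 347), beside 17.3% and 14.0% of all genes. The cluster led by Rsad2, Tgm2 and Il1rn had 23 of 39 higher and 1 lower (38 and 150 cells), beside 21.7% and 18.7%. Among IL-22-positive cells the first had 2 of 39 higher and 21 lower (31 and 483 cells; 19.0% and 28.3%), and the second 28 of 41 higher and none lower (110 and 558 cells; 15.7% and 19.0%). Where a cluster held under 50 cells at 0 h, its ratios rest on that few cells, and the difference between the clusters was not tested. Most Rsad2 UMIs of the IL-22-negative class lay in the Chil3 cluster at 0 h and in the Rsad2 cluster at 12 h. What such a shift of cells between the clusters added to the opposite directions was not tested.

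In IL-22-negative cells Isg15 stood at 402 and 368 CPM in the Chil3 cluster (0.916, 0.775 to 1.09) and went from 1014 to 2188 CPM in the Rsad2 cluster (2.16, 1.80 to 2.61). The highest ratios in the Chil3 cluster were Ifit1 at 1.91, Parp9 at 1.33, Usp18 at 1.30, Ifit2 at 0.940 and Isg15, and the lowest Ifit3 at 0.389, Rtp4 at 0.445, Oas1a at 0.454, Oas3 at 0.456 and Xaf1 at 0.484. In the Rsad2 cluster the highest were Rsad2 at 29.1 (2 and 271 UMIs, 7.99 to 242), Usp18 at 12.3 (1 and 57 UMIs, 2.11 to 492), Ifit2 at 6.34, Ifit1 at 4.60 and Cmpk2 at 4.14. Its lowest were Zbp1 at 0.594, Samhd1 at 0.713, Ifi47 at 0.869, Ifi27l2a at 0.906 and Slfn8 at 1.12.

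In IL-22-positive cells Isg15 stood at 603 and 684 CPM in the Chil3 cluster (1.13, 0.917 to 1.42) and went from 258 to 2258 CPM in the Rsad2 cluster (8.75, 7.30 to 10.6). The other leading ratios of the Rsad2 cluster were Rsad2 at 15.6, Oasl1 at 10.7, Ifit1 at 9.11 and Cmpk2 at 8.6, and its lowest Samhd1 at 0.670, Ifi27l2a at 0.861, Irf9 at 0.931, Oas1a at 1.04 and Lgals3bp at 1.05. In the Chil3 cluster Isg20 at 3.61, Ifih1 at 1.5, Oasl1 at 1.36, Stat2 at 1.32 and Dtx3l at 1.22 were highest, and Phf11b at 0.216, Oas1a at 0.351, Irf7 at 0.380, Ddx58 at 0.398 and Lgals3bp at 0.400 lowest. The share of responding IL-22-positive cells was 4.63% and 19.8% in the Rsad2 cluster and 9.68% and 8.21% in the Chil3 cluster.

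Within monocyte sub-clusters the cells were few, and of the 3 compared only the first held 50 or more at both times. In the nonclassical-like sub-cluster of IL-22-positive cells (72 and 60), none of 22 members was higher and 7 were lower, beside 12.3% and 13.3% of all genes, with Oas1a, Zbp1, Parp14, Slfn1, Phf11b, Xaf1 and Rtp4 called lower. Its highest ratios were Bst2 at 1.31, Slfn2 at 1.27, Isg15 at 1.21, Trim30a at 0.976 and Samhd1 at 0.830, and its lowest Slfn1 at 0.517, Zbp1 at 0.572, Ifi27l2a at 0.681, Irf7 at 0.708 and Slfn5 at 0.773. In another IL-22-positive sub-cluster (23 and 180 cells), 15 of 36 were higher and 2 lower (24.2% and 17.2%), led by Irf7 at 3.26, Isg15 at 2.86, Bst2 at 2.67, Isg20 at 2.59 and Rtp4 at 2.05. The lowest there were Samhd1 at 0.550, Ifi27l2a at 0.724, Oas1a at 0.731, Trim30a at 0.736 and Phf11b at 0.900. In the sub-cluster that held most IL-22-negative cells at 0 h (97 and 27), 3 of 29 were higher and 13 lower (12.2% and 19.4%), with Irf7 at 1.33, Bst2 at 1.03, Oasl2 at 0.987, Slfn5 at 0.914 and Isg15 at 0.869 on top. The lowest were Slfn1 at 0.508, Samhd1 at 0.565, Zbp1 at 0.576, Rtp4 at 0.631 and Xaf1 at 0.636.

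The share of responding monocyte-like cells was 7.58% (10 of 132, 3.69 to 13.5) and 8.79% (43 of 489, 6.44 to 11.7) among IL-22-negative and 5.76% (8 of 139, 2.52 to 11.0) and 14.3% (145 of 1011, 12.2 to 16.7) among IL-22-positive cells. Only the second pair has intervals that do not overlap. Unthinned, the shares were 34.8% and 23.9% in the first sort and 23.4% and 24.9% in the second. At 12 h, 31 of the 43 and 76 of the 145 responders (72.1% and 52.4%) lay in the sub-cluster led by Rsad2 and Ifit1.

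Fewer IL-22-negative monocyte-like cells had any core UMI at 12 h (46.2% and 34.6%), while a positive cell had more of them (2.85 and 5.44 UMIs, 1.91 times). A responding cell had 9.40 and 16.3 core UMIs and any other cell 0.656 and 0.487. Among IL-22-positive cells the share factor was 1.08 and the level factor 2.71, with 7.38 and 15.2 core UMIs per responding and 0.527 and 0.611 per other cell. Responders held 76.4% and 80.6% of the core UMIs at 12 h in the 2 sorts. For Isg15 in IL-22-positive cells the share went from 20.1% to 32.4% and the level from 1.89 to 4.54 UMIs, and for Rsad2 the share went from 5.76% to 9.69% and the level from 1.5 to 3.19 UMIs. For Samhd1 both were lower, the share at 61.2% and 40.2% and the level by a factor of 0.785.

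**Figure D5:**
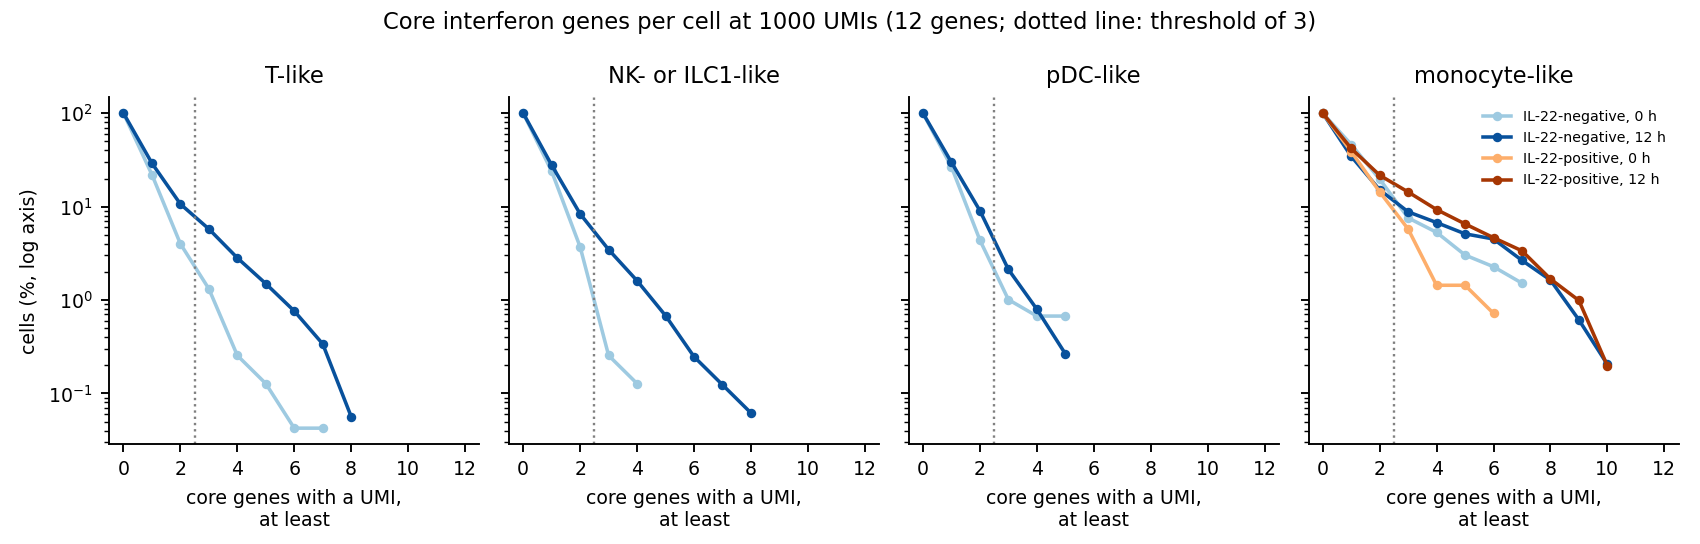
Percentage of cells (log axis) with at least the number of core genes on the horizontal axis, after thinning to 1000 UMIs, in T-like, NK- or ILC1-like, pDC-like and monocyte-like cells of each library. At 3 core genes the IL-22-positive monocyte-like curve stands at 14.3% at 12 h and 5.76% at 0 h.

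Detection in single IL-22-positive monocyte-like cells at 12 h was again joint. Of 74 cells with an Ifit1 UMI, 90.5% had Isg15, 62.2% Rsad2 and 44.6% Cmpk2, against 27.9%, 5.55% and 2.03% of 937 without. Samhd1 was detected in 56.8% and 38.8%, and Ifi27l2a in 82.4% and 69.1%. Both of these members, whose class ratios were below 1, were thus detected more often in cells with Ifit1.

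Between the sorts at 0 h, the IL-22-positive monocyte-like cells had 3 of 37 members higher and 9 lower than the IL-22-negative ones, beside 18.5% and 13.3% of all genes. Isg20 was at 24.4 against 78.0 CPM (0.312, 0.161 to 0.572), Eif2ak2 had a ratio of 0.550, Ifit3 0.585, Slfn1 0.598 and Isg15 0.636 (0.531 to 0.760). Lgals3bp was higher at 2.24 (1.31 to 3.99), followed by Rsad2 at 1.43, Dtx3l at 1.35, Ddx58 at 1.25 and Ifit2 at 1.08. At 12 h, 9 of 41 were higher and none lower (11.6% and 14.2%). Rsad2 had a ratio of 2.01 (1.78 to 2.27), Ddx60 1.85, Oas3 1.80, Isg15 1.78 (1.69 to 1.87) and Lgals3bp 1.71. The lowest were Phf11b at 0.710, Oas1a at 0.749, Ifit3b at 0.768, Parp9 at 0.869 and Slfn1 at 0.901.

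The interferons themselves were scarcely counted. All 17 type I interferon genes together had 0, 4, 2 and 0 UMIs in the 4 libraries, so no class can be named as their source. Ifng, the type II interferon of T and NK cells, stood at 150 and 169 CPM in T-like and 296 and 329 CPM in NK- or ILC1-like cells, differences that did not pass. In T-like cells none of 5 receptor genes and none of 8 receptor signalling genes was higher. Of 4 feedback genes Socs3 was higher, from 24.4 to 38.2 CPM (1.57). Of 11 further sensors Ifi204 was higher (3.00).

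Of 16 targets known for type II interferon, 4 were higher in T-like cells, beside 3.92% of all genes: the chemokine gene Cxcl10, from 62.0 to 198 CPM (3.19), Cd274 at 1.72, Gbp2 at 1.58 and Iigp1 at 1.53. With interferon genes kept in the clustering, none of the 6 pathway genes named for T-like cells, Socs3 and Ifi204 included, was called higher. In IL-22-negative monocyte-like cells Cxcl10 went from 294 to 1033 CPM (3.51), while Cxcl9 had a ratio of 0.422. In IL-22-positive monocyte-like cells Cxcl10 went from 459 to 864 CPM (1.88), Cxcl9 had a ratio of 0.607 and Ifnar1, a chain of the type I receptor, one of 0.593. The chemokine targets thus differed in direction within the same cells.

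Outside the classes, the clusters of low UMI count in the IL-22-negative libraries had 12 of 38 members higher and none lower, beside 10.2% of all genes called higher. Their lowest ratios were Irf9 at 0.768, Ifi47 at 0.828, Ifi27l2a at 0.874, Irf7 at 0.887 and Slfn8 at 0.894, and their highest Rsad2 at 4.95, Oasl2 at 3.53, Usp18 at 2.47, Stat2 at 2.04 and Trim30a at 1.91. The make-up of this low-UMI pool also changed between the times, and its part in the ratios was not tested. Cycling cells (67 and 163) had 10 of 27 members higher and 2 lower, beside 10.2% and 12.7%. Isg15 led there at 4.21, with Rtp4 at 2.46, Trim30a at 1.83, Irf7 at 1.78 and Zbp1 at 1.76, and Samhd1 at 0.918, Ifi27l2a at 0.933, Slfn2 at 0.955, Parp14 at 1.14 and Isg20 at 1.22 were lowest. Over all cells of the IL-22-negative libraries 20 of 41 members were higher, beside 7.14% of all genes, and over those of the IL-22-positive libraries 23 of 41, beside 12.4%. Rsad2 led both, at 6.74 and 7.70. In the IL-22-negative sums Ifit3b at 4.26, Phf11d at 4.02, Ifit1 at 3.70 and Isg15 at 3.00 followed, and Irf9 at 0.852, Stat2 at 0.879, Ddx58 at 0.889, Samhd1 at 0.934 and Ddx60 at 1.02 were lowest. In the IL-22-positive sums Oasl1 at 5.85, Cmpk2 at 5.38, Isg15 at 4.97 and Ifit3b at 4.90 followed, and Phf11b at 0.797, Lgals3bp at 0.829, Parp9 at 0.845, Oas1a at 0.876 and Samhd1 at 0.914 were lowest. These sums mix classes whose shares of cells differ between the libraries.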

How the data were processed

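Raw UMI counts per gene and barcode were deposited as 10x matrices for 4 libraries; the authors made them with Cell Ranger 4.0.0 per the file headers (3.0.1 and mm10 per the submitters' processing notes). Sample groups follow the labels. The members and lists were chosen with earlier results of these data known. Barcodes needed 200 or more genes and less than 10% mitochondrial UMIs. Doublets were scored with Scrublet; its automatic threshold called none in the IL-22-negative 0 h library, so that library took the threshold of the IL-22-negative 12 h library, chosen after seeing the result, while the others kept their own, and 299, 464, 1 and 2 cells were removed. Clustering (Python 3.11.15, scanpy 1.11.5, leidenalg 0.10.2) used 2000 variable genes without interferon genes, 30 principal components, 15 neighbours and resolution 1. UMIs were summed per class and library; exact 95% intervals came from scipy 1.17.1. With 1 library per group no replicate test exists. All 41 members are accounted for by role. Isg15, Ifit3, Rsad2, Irf7, Bst2 and Ifi27l2a are given in every class listed at the start. Each comparison described gives the 5 highest and 5 lowest ratios at 50 UMIs or more. Other genes come from pathway lists (receptors, receptor signalling, feedback, sensors, interferon regulatory factors, type II targets). On simulated T-like sums, 96% of 2-fold increases were recovered and 94.6% of unchanged genes were not called. On IL-22-positive monocyte-like sums these were 88% and 81.85%. The simulated sums held Poisson counting error only, without differences between cells or libraries, so they do not show how the call fares on real libraries. Alternatives changed the filter, doublet removal, clustering genes, UMI minimum, fold and thinning depth. The result for 1 pathway gene is not reported here.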

Additional observations from a re-analysis of the deposited data

Results flagged for a closer look

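Some members differed in direction between classes of the IL-22-negative libraries under the same 12 h to 0 h comparison. Oas1a had a ratio of 0.623 in monocyte-like and 1.54 in T-like cells, Oas3 0.565 and 2.08, and Zbp1, a sensor of Z-form nucleic acid, 0.636 and 1.61. Bst2 had a ratio of 0.610 in cDC-like and 2.01 in T-like cells, but the summed pDC markers in the cDC-like class also went from 885 to 531 CPM. With 1 library per group these differences between classes were not tested.

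The clusters of low UMI count, which belong to no class, held members above their 0 h level. Between 12 h and 0 h in the IL-22-negative libraries, Rsad2 had a ratio of 4.95 there, Ifit1 3.24, Usp18 2.47, Ifit2 1.80 and Isg15 1.60. The make-up of this pool changed, however. Its cluster nearest the monocyte markers had 62 and then 72 cells, and its cluster nearest the B markers 412 and then 65. What this shift added to the ratios was not tested.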

How the results depend on the processing

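Of 25 main results on counts, sums and shares, 140 of 210 alternative values stayed close to the value reported and 70 moved. Another 67 results covered mostly single members, with some further counts, sums and shares. Of their 435 alternative values, 338 stayed, 88 moved and 9 turned direction, a label open only to single members. When the interferon genes were kept in the clustering, responding cells left their classes: only 46 of 204 T-like responders stayed, as did 6 of 43 and 13 of 145 monocyte-like ones in the negative and the positive sort. T-like cells then had 8 members and 0 pathway genes higher, a 12 h sum of 3014 CPM, 1.40% responding, a share factor of 1.13 and a level factor of 1.08. IL-22-negative monocyte-like cells had 0 members higher and 25 lower, Isg15 at 0.592, Rsad2 at 0.359, a 0 h sum of 7957 CPM and 1.75% responding. IL-22-positive ones had 3 higher, Ifit3 at 0.236, Rsad2 at 0.429, Bst2 at 0.998, 1.83% responding, a share factor of 0.799 and a level factor of 1.1; between sorts 5 were lower at 0 h and 1 higher at 12 h. With no doublet removed, 6 members were higher in B-like, 13 higher and 2 lower in IL-22-negative monocyte-like (13.8% responding) and 25 higher in IL-22-positive cells, 4 higher between sorts at 12 h, and the pDC-like 0 h sum was 8631 CPM. With 500 or more genes and less than 5% mitochondrial UMIs, IL-22-negative monocyte-like cells had 0 higher and 19 lower, Isg15 at 0.779, Rsad2 at 0.812 and 5.26% responding, IL-22-positive ones 4 higher, 7.13% responding and a level factor of 1.53, and pDC-like cells 2 higher. Placing low-UMI clusters cell by cell gave 4 lower and a 0 h sum of 8172 CPM in IL-22-negative monocyte-like cells. A minimum of 50 UMIs left 1 higher in B-like cells; no minimum gave 7 in B-like and 9 in pDC-like cells. At 2-fold, 2 pathway genes were higher in T-like cells, 10 members in NK- or ILC1-like, 1 in B-like and 1 in pDC-like cells, 0 were lower in IL-22-negative monocyte-like cells, and between sorts 3 were lower at 0 h and 2 higher at 12 h. Without the 1 cell holding most member UMIs, the IL-22-negative monocyte-like 0 h sum was 8540 CPM. Requiring 2 core genes gave 10.6% responding T-like, 8.35% NK- or ILC1-like, 11.1% cDC-like, 15.1% and 21.7% monocyte-like cells (IL-22-negative, then -positive) at 12 h; requiring 4 gave 2.82%, 1.61% and, IL-22-positive, 9.30%. Thinning to 1500 UMIs gave 7.65%, 5.67%, 9.09%, 12.9% and 16.7%, with a T-like level factor of 2.0, and to 700 UMIs 3.78%, 2.51%, 3.15% and, IL-22-positive, 10.3%. Without the sub-cluster led by Rsad2 and Ifit1 (chosen after seeing the data), IL-22-negative monocyte-like cells had 1 higher, 20 lower, Isg15 at 0.681, Rsad2 at 0.543, a 0 h sum of 8098 CPM and 2.69% responding, IL-22-positive ones 6 higher, 7.48% responding and a level factor of 1.98; between sorts 5 were lower at 0 h and 14 higher at 12 h. Sub-cluster counts were not run where cells were clustered anew. No paired analysis was possible because each group has 1 library.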
